A study of Mus musculus with 17 samples.

Results

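Sox proteins are transcription factors that bind DNA through a high mobility group box, and the family is divided into subgroups by sequence. In the embryonic cortex the SoxB1 factors Sox1, Sox2 and Sox3 are known for keeping neural progenitors undifferentiated, and the SoxB2 factor Sox21 for counteracting them. The SoxC factors Sox4 and Sox11 are known for switching on genes of immature neurons, the SoxD factor Sox5 for the timing and identity of deep-layer projection neurons, and the SoxD factor Sox6 for a counterpart role in dorsal progenitors. The SoxE factors Sox8 and Sox9 are known for progenitor maintenance and gliogenesis. These 10 genes were examined here, chosen as all probe sets whose annotation gives one of these 10 symbols and no other. They comprised 36 of 34945 single-symbol probe sets. At gene level they were 10 of 18193 genes, each gene being represented by its probe set with the highest mean over the arrays.

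RNA came from mouse embryonic cortex carrying an hGFAP eGFP transgene, in which a human GFAP promoter drives enhanced green fluorescent protein, a reporter used to mark radial glia. Cells were sorted by GFP and hybridised to 17 arrays in 5 groups. The groups were E18 GFP-positive cells selected for Prominin (n = 4), E14 GFP-high cells selected for Prominin (n = 4), E14 GFP-low cells selected for Prominin (n = 3), E14 GFP-high cells (n = 3) and E14 GFP-low cells (n = 3). The labels name no Prominin gate for the last 2 groups, which are called ungated here. Prominin is an apical membrane protein of neuroepithelial and radial glial cells. All groups share the transgene, and the labels tie no array to a litter or animal, so p-values measure no more than the spread among these arrays, which may be technical.

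Levels are given as log2(intensity + 16) after quantile normalisation, differences are on the same log2 scale, and values compare a gene between samples and not with another gene. The median gene had a level of 6.30. A background mark of 6.28 was set from genes of unrelated tissues, and no fold change is given where the lower of both groups did not exceed it. The sorts were checked on their own markers. Prom1, which encodes Prominin, was higher in the GFP-high fraction than in the GFP-low fraction within the Prominin selection (10.93 against 10.19, adjusted p = 0.0309) and outside it (10.79 against 8.63, adjusted p = 9.18e-04). Prom1 was lower at E18 than in Prominin-selected E14 GFP-high cells (8.84 against 10.93, adjusted p = 8.62e-07). The endogenous Gfap gene lay below the mark in all 5 groups. Every array had the same trimmed mean of the deposited intensity, 150.0. The 11 Prominin-selected arrays and 1 ungated GFP-high array were labelled with the MessageAmp II kit and the other 5 ungated arrays with the Affymetrix kit. The log2 difference between 3′ and 5′ Gapdh control probes, a sign of RNA length, was −0.21 to 1.00 in E18 cells, 0.54 to 1.71 in Prominin-selected E14 GFP-high cells and 0.92 to 2.30 in Prominin-selected E14 GFP-low cells. It was −0.21 to −0.19 in ungated GFP-high cells and −0.25 to 0.18 in ungated GFP-low cells. The intensity of the 18S ribosomal RNA control was 302 to 583 at E18, 2446 to 5192 in Prominin-selected E14 GFP-high cells and 2292 to 2628 in Prominin-selected E14 GFP-low cells. It was 179 to 427 in ungated GFP-high cells and 175 to 627 in ungated GFP-low cells.

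Start-site sequence is shown for 4 of the members with a promoter window, as examples of 3 subgroups: Sox2 for SoxB1, the SoxC pair Sox4 and Sox11, whose probe sets diverged, and Sox5 for SoxD. Each line holds the 250 bases before the annotated gene start, 5′ to 3′ in the direction of transcription, from RefSeq on build GRCm38.p6. Capitals mark the Sox core ACAAT and the CCAAT box, searched on both strands (ATTGT and ATTGG on the other strand). The windows lie at chr3:34649745-34649994 on the plus strand for Sox2, chr13:28953700-28953949 on the minus strand for Sox4, chr12:27342719-27342968 on the minus strand for Sox11 and chr6:143947107-143947356 on the minus strand for Sox5.
Sox2: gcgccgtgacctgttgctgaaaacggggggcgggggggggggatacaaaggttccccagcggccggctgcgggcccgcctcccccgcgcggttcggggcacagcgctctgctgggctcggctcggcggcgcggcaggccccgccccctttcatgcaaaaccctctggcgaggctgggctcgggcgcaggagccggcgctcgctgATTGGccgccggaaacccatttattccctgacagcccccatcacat
Sox4: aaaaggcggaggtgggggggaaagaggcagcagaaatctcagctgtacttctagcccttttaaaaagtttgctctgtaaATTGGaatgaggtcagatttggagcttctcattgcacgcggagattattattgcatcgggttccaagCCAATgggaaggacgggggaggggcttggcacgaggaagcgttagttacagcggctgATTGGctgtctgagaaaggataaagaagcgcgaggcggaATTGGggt
Sox11: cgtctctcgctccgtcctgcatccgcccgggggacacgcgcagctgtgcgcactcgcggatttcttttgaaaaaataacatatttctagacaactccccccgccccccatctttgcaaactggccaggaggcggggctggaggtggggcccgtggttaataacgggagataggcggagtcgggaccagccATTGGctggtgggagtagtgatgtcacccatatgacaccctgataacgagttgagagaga
Sox5: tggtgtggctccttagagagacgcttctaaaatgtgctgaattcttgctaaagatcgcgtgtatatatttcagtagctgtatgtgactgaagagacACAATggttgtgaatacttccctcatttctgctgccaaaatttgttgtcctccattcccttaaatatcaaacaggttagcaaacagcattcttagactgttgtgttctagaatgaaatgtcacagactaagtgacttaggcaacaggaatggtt

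The windows of Sox2 and Sox11 each held 1 CCAAT match, starting at positions −46 and −60 counted back from the gene start, and that of Sox4 held 4. The Sox5 window held 1 ACAAT match and no CCAAT match. Windows were available for 8 of the 10 members, Sox3 and Sox9 being the others. CCAAT occurred in a window of 5 of these 8 (Sox1, Sox2, Sox4, Sox11 and Sox6), against 33.8% of 32851 windows of mouse genes. ACAAT occurred in 2 of 8 (Sox5 and Sox6), against 27.7% of all windows. The E-box CANNTG occurred in 4 of 8 (Sox4, Sox11, Sox6 and Sox8), against 66.2%. The GC box GGGCGG occurred in 5 of 8 (Sox1, Sox2, Sox11, Sox6 and Sox8), against 32.7%. The core TGGGAA, bound by the Notch effector RBPJ, occurred in Sox4 only, against 21.6%, and TATAAA in Sox6 only, against 12.4%. A CCAAT match overlapped both an E-box and an ACAAT match in one Sox6 window. The TGGGAA match of Sox4 shared a base with one of its CCAAT matches. Sox6 had 6 windows, which gave it more sequence to hold a match. These matches describe letters in a window and are not shown to be bound.

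The SoxB1 genes were highest in ungated E14 GFP-high cells. Sox2, a core factor of neural stem cells, had levels of 9.86, 9.84, 10.03 and 9.87 in E18 cells. Its levels were 10.04, 9.93, 10.37 and 10.65 in Prominin-selected GFP-high cells, and 9.67, 9.31 and 9.64 in Prominin-selected GFP-low cells. In ungated cells they were 11.87, 11.60 and 11.78 in the GFP-high arrays and 8.49, 8.87 and 9.64 in the GFP-low arrays. All 3 ungated GFP-high arrays thus lay above every other array, while the 2 GFP-low groups overlapped. Sox3, an X-linked SoxB1 gene, had levels of 5.78, 5.96, 6.22 and 6.29 at E18, at or close to the background mark. At E14 its levels were 9.25, 8.89, 8.68 and 8.93 in Prominin-selected GFP-high cells and 7.82, 7.71 and 7.64 in Prominin-selected GFP-low cells. They were 10.15, 10.07 and 10.11 in ungated GFP-high cells and 6.86, 6.28 and 7.74 in ungated GFP-low cells. The 4 E18 arrays were low, 3 of them below every E14 array, and the fourth (6.29) level with the lowest ungated GFP-low array (6.28). Sox1 averaged 8.40 ± 0.28 at E18, 8.62 ± 0.25 in Prominin-selected GFP-high cells and 7.88 ± 0.02 in Prominin-selected GFP-low cells (SD; n = 4, 4 and 3). It averaged 9.29 ± 0.31 in ungated GFP-high and 6.86 ± 0.51 in ungated GFP-low cells (SD, n = 3 each), and the E18 and Prominin-selected GFP-high arrays overlapped.

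Sox21, the SoxB2 member, had levels of 8.14, 8.10, 8.02 and 8.22 at E18, against 9.26, 9.38, 9.78 and 10.04 in Prominin-selected E14 GFP-high cells and 9.01, 8.35 and 9.09 in Prominin-selected E14 GFP-low cells. The E18 arrays lay below every Prominin-selected E14 array. Ungated GFP-high arrays reached 9.94, 9.81 and 9.68, and ungated GFP-low arrays 7.32, 7.52 and 7.62. The GFP-high arrays with and without the Prominin gate overlapped.

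**Figure D1:**
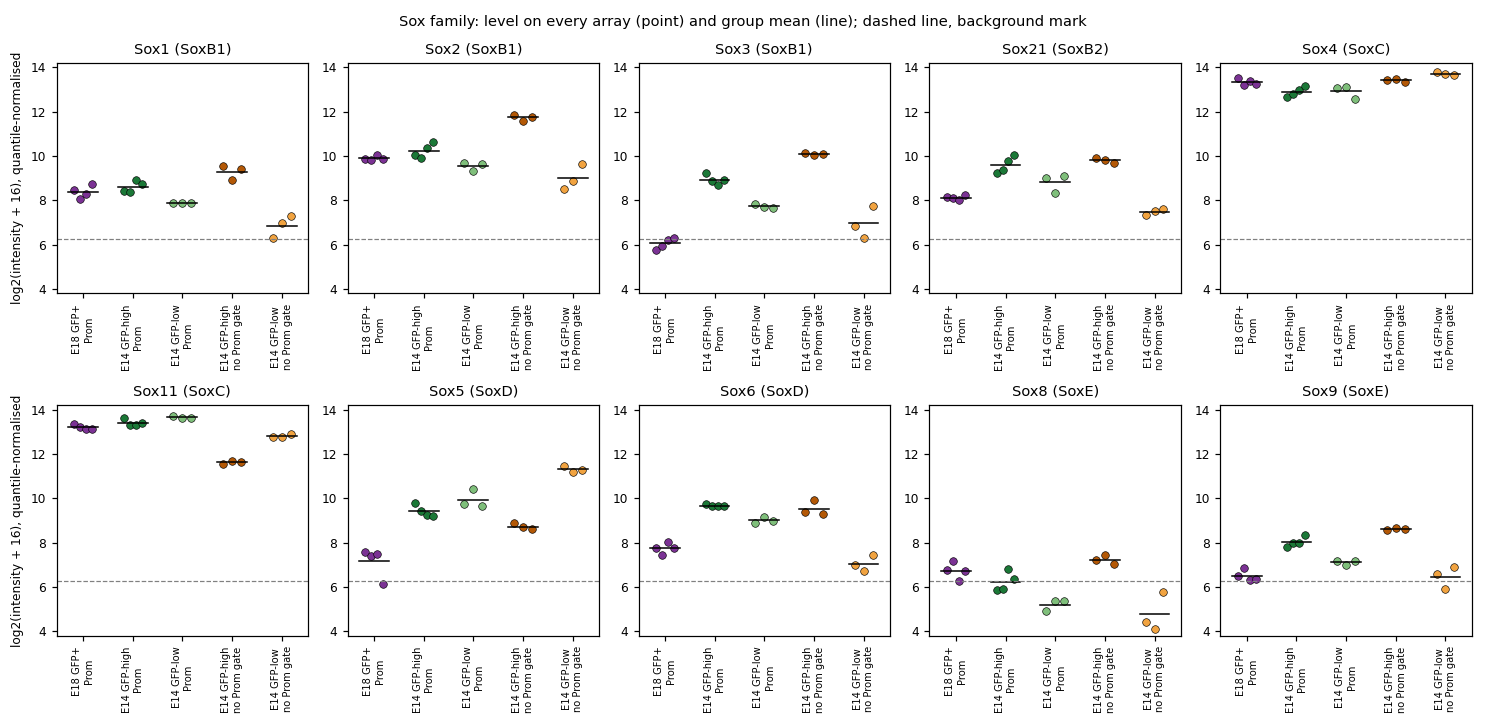
Levels of the 10 Sox genes, log2(intensity + 16), on each of the 17 arrays, 1 panel a gene. Points are arrays, horizontal lines group means, and the dashed line is the background mark of 6.28. Sox3, Sox9 and Sox8 come near or below the mark in some groups, whereas Sox4 and Sox11 stay far above it in all 5.

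The SoxC genes were strongly detected in every group. Sox4 had levels of 13.53, 13.20, 13.40 and 13.27 at E18, 12.66, 12.81, 12.99 and 13.14 in Prominin-selected GFP-high cells, and 13.07, 13.11 and 12.59 in Prominin-selected GFP-low cells. Its levels were 13.45, 13.46 and 13.35 in ungated GFP-high and 13.78, 13.73 and 13.65 in ungated GFP-low cells. The 5 group means of Sox4 spanned only 0.82 on this probe set, which represents the gene, but 2.81 on another, 1419157_at. Sox11 had levels of 13.34, 13.23, 13.14 and 13.11 at E18, 13.64, 13.32, 13.31 and 13.38 in Prominin-selected GFP-high cells, and 13.71, 13.61 and 13.64 in Prominin-selected GFP-low cells. It was low in ungated GFP-high cells, at 11.54, 11.68 and 11.64, and stood at 12.76, 12.75 and 12.91 in ungated GFP-low cells. On this probe set the ungated groups lay below all Prominin-selected arrays and did not overlap with each other. On another Sox11 probe set, 1436790_a_at, the ungated means lay above the Prominin-selected means. They were 12.39 at E18, 12.28 in Prominin-selected GFP-high and 12.33 in Prominin-selected GFP-low cells. In ungated cells they were 12.58 in GFP-high and 13.21 in GFP-low cells. The GFP-low mean was above the GFP-high mean within each gate on both probe sets. Under the Prominin gate, however, the arrays of both fractions overlapped on each, and none of the 6 Sox11 probe sets was called.

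The SoxD genes differed from each other between GFP fractions. Sox5 had levels of 7.57, 7.41, 7.49 and 6.14 at E18, 9.79, 9.42, 9.25 and 9.20 in Prominin-selected GFP-high cells, and 9.72, 10.40 and 9.64 in Prominin-selected GFP-low cells. In ungated cells it was 8.87, 8.71 and 8.59 in the GFP-high arrays and 11.46, 11.17 and 11.28 in the GFP-low arrays, its highest group. One E18 array, replicate 5, lay far below the other 3. Sox6 had levels of 7.73, 7.46, 8.04 and 7.77 at E18, 9.73, 9.64, 9.66 and 9.63 in Prominin-selected GFP-high cells, and 8.89, 9.15 and 8.97 in Prominin-selected GFP-low cells. Ungated GFP-high arrays stood at 9.37, 9.91 and 9.28, against 6.98, 6.70 and 7.44 in ungated GFP-low arrays. Sox6 was thus lowest in the group where Sox5 was highest.

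The SoxE genes came close to the background mark in some groups. Sox9 had levels of 6.47, 6.85, 6.30 and 6.36 at E18, 7.79, 7.96, 7.98 and 8.34 in Prominin-selected GFP-high cells, and 7.17, 7.00 and 7.18 in Prominin-selected GFP-low cells. It stood at 8.58, 8.64 and 8.61 in ungated GFP-high cells and at 6.58, 5.89 and 6.89 in ungated GFP-low cells. The E18 and ungated GFP-low arrays overlapped near the mark. Sox8 averaged 6.72 ± 0.37 at E18 and 7.23 ± 0.22 in ungated GFP-high cells (SD; n = 4 and 3). It was below the mark on average in Prominin-selected GFP-high cells (6.23 ± 0.45, n = 4), Prominin-selected GFP-low cells (5.20 ± 0.27, n = 3) and ungated GFP-low cells (4.76 ± 0.87, n = 3).

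Ordered by group means, neighbours whose arrays overlapped are joined here by "with". Sox1 and Sox2 ran ungated GFP-high, then Prominin-selected GFP-high with E18. Sox1 continued with Prominin-selected GFP-low and then ungated GFP-low, which for Sox2 overlapped. Sox3 ran ungated GFP-high, Prominin-selected GFP-high, then Prominin-selected GFP-low with ungated GFP-low, and ungated GFP-low with E18. Sox21 ran ungated GFP-high with Prominin-selected GFP-high, then Prominin-selected GFP-low, E18 and ungated GFP-low. Sox6 differed from Sox21 only in the order of its joined first pair, with Prominin-selected GFP-high cells on top. Sox9 ran ungated GFP-high, Prominin-selected GFP-high, Prominin-selected GFP-low, then E18 with ungated GFP-low. Sox8 ran ungated GFP-high with E18, E18 with Prominin-selected GFP-high, then Prominin-selected GFP-low with ungated GFP-low. Sox4 ran ungated GFP-low, then ungated GFP-high with E18, then Prominin-selected GFP-low with Prominin-selected GFP-high. Sox11 ran Prominin-selected GFP-low with Prominin-selected GFP-high, the second of these with E18, then ungated GFP-low and ungated GFP-high. Sox5 ran ungated GFP-low, Prominin-selected GFP-low with Prominin-selected GFP-high, ungated GFP-high and E18.

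The first comparison set E14 GFP-high against GFP-low cells without the Prominin gate, which asks how the family differs between the strongly and weakly reporter-positive cortex. In bulk samples, fewer cells of a type and less RNA per cell cannot be told apart. Progenitor-associated members were higher in GFP-high cells and 2 members linked to neurons were lower. Of the 10 members, 7 were higher and 2 lower at an adjusted p below 0.05, against 7.61% of all genes higher and 8.16% lower. The median difference was 2.37 over the members and −0.01 over all genes. Sox3 was 8.84-fold higher (difference 3.14 ± 0.35, SE, adjusted p = 0.00170) and Sox2 6.72-fold higher (2.75 ± 0.30, adjusted p = 0.00157). Sox1 was 5.37-fold higher and Sox21 was higher by 2.32 ± 0.18 on the log2 scale (adjusted p = 6.43e-04), so that all SoxB members rose. In SoxD the directions were opposite: Sox6 was 5.60-fold higher (2.49 ± 0.27, adjusted p = 0.00149), while Sox5 was 5.98-fold lower (−2.58 ± 0.18, adjusted p = 6.11e-04). In SoxE, Sox9 was 4.46-fold higher (adjusted p = 0.00244) and Sox8 was higher (2.47 ± 0.42, adjusted p = 0.00835) from a group below the mark. In SoxC, Sox11 was 2.28-fold lower (−1.19 ± 0.16, adjusted p = 0.00330). Sox4 differed by −0.30 ± 0.16 and did not pass the test (adjusted p = 0.280), although its groups did not overlap. That value is from its brightest probe set. Of the 8 Sox4 probe sets 2 were called lower and none higher, against 11.7% of all single-symbol probe sets called in either direction. With only the 5 arrays of the Affymetrix kit, the same 9 members were called, in the same directions. The call of Sox8 was lost with a pseudocount of 1 (adjusted p = 0.0690).

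Under the Prominin gate the same GFP comparison gave smaller differences. Of the 10 members 2 rose and none fell, against 0.478% of all genes higher and 1.20% lower. Sox3 was higher by 2.31-fold in the GFP-high fraction (1.21 ± 0.18, adjusted p = 0.00796). Sox9 was 1.87-fold higher (0.90 ± 0.18, adjusted p = 0.0325). Differences of the same sign that did not pass the test were measured for Sox1 (0.73 ± 0.19, adjusted p = 0.0730), Sox2 (0.70 ± 0.19, adjusted p = 0.0849), Sox21 (0.80 ± 0.22, adjusted p = 0.108), Sox6 (0.66 ± 0.16, adjusted p = 0.0596) and Sox8 (1.03 ± 0.26, adjusted p = 0.0733). Sox4 (−0.02 ± 0.18), Sox11 (−0.24 ± 0.14) and Sox5 (−0.50 ± 0.32) had overlapping groups. The median difference was 0.72 over the members, against −0.01 over all genes. Before adjustment 7 of the 10 members had p below 0.05, as did 2440 of the 18193 genes. The count of 2 depended on the setting, as did the calls over all genes, 305 in the main fit and given in brackets here. It was 5 with a pseudocount of 64 (554) and 7 with a mean-variance trend and robust fit (498). It was 6 without the dimmest 40% of genes (510 of 10916) and 0 with the mean of a gene's probe sets (143). It was also 0 (6) without Prominin-selected GFP-high replicate 1 and GFP-low replicate 3, which stood apart from the rest of their groups.

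**Figure D2:**
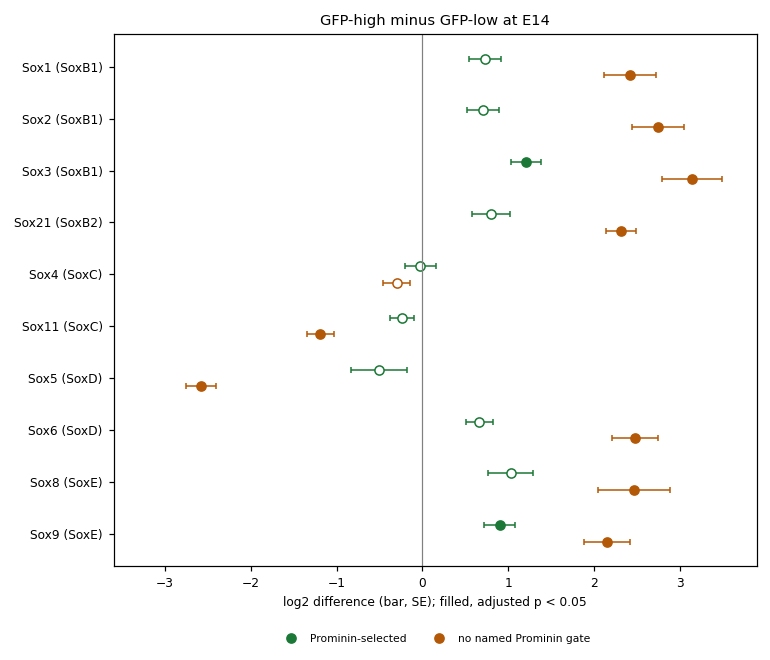
Differences between E14 GFP-high and GFP-low cells (log2, GFP-high minus GFP-low) for the 10 Sox genes, with Prominin selection in green and without it in brown. Points are differences, bars standard errors, and filled points passed an adjusted p below 0.05. The brown points of Sox1, Sox2, Sox3, Sox21, Sox6, Sox8 and Sox9 lie above 2, and their green points between 0.66 and 1.21.

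Whether the gate altered the GFP difference was tested in the model, as the GFP difference with the gate minus that without it. It was called for 8 members, 6 below 0 and 2 above, against 3.83% of all genes below 0 and 3.87% above. The SoxB differences were smaller under the gate, at −2.04 ± 0.34 for Sox2 (adjusted p = 0.00129), −1.93 ± 0.37 for Sox3 (adjusted p = 0.00335), −1.69 ± 0.34 for Sox1 and −1.52 ± 0.30 for Sox21. Sox6 gave −1.82 ± 0.29 (adjusted p = 9.44e-04) and Sox9 −1.25 ± 0.31 (adjusted p = 0.0178). For Sox5 and Sox11, lower in ungated GFP-high cells, the change was positive, at 2.08 ± 0.42 (adjusted p = 0.00546) and 0.95 ± 0.20 (adjusted p = 0.00578). Sox4 (0.28 ± 0.24, adjusted p = 0.603) and Sox8 (−1.44 ± 0.49, adjusted p = 0.0897) were not called. With the labelling kit as a term in the model the count was again 8. That term rests on ungated GFP-high replicate 1 alone and equals leaving this array out. It therefore cannot show whether the kit altered the GFP difference. Without the 4 arrays that stood apart, namely Prominin-selected GFP-high replicate 1, Prominin-selected GFP-low replicate 3, ungated GFP-high replicate 1 and ungated GFP-low replicate 2, only Sox2, Sox3 and Sox6 were called. Over all genes 597 were then called, against 1400 in the main fit.

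Prominin-selected cells were also set against ungated cells within each GFP fraction. Among GFP-high cells, 1 member was higher and 5 lower in Prominin-selected cells, against 11.8% of all genes higher and 8.98% lower. Sox11 was 3.47-fold higher (1.79 ± 0.13, adjusted p = 4.40e-07). Sox2 was 2.84-fold lower (−1.51 ± 0.23, adjusted p = 2.33e-04) and Sox3 2.25-fold lower (−1.17 ± 0.25, adjusted p = 0.00325). Sox1 (1.59-fold, adjusted p = 0.0488), Sox4 (1.43-fold, adjusted p = 0.0319) and Sox8 (−0.99 ± 0.33, adjusted p = 0.0427) were lower by margins close to the threshold. Sox5, Sox6, Sox9 and Sox21 were not called, with differences of 0.69, 0.14, −0.59 and −0.20. For Sox9, 1 of 3 probe sets was called lower in Prominin-selected cells. The gene was called lower in 7 of 19 alternative settings, with differences of −1.22 to −0.51 over all of them. For Sox21 the second probe set, 1451835_at, was lower in Prominin-selected cells (7.38 against 8.93, adjusted p = 0.00105), and the mean of both gave −0.88 (adjusted p = 0.00634). For Sox11 the call rested on 2 of 6 probe sets. In the same comparison 7 of 9 interneuron genes (median 1.28) and 7 of 13 postmitotic neuron genes were higher, with 1 neuron gene and 8 of 15 progenitor genes lower. The summed intensity of the interneuron genes was 356 to 748 in Prominin-selected against 83.7 to 166 in ungated GFP-high cells. Of the 9 genes, 2 (Gad1 and Sst) lay above the mark in Prominin-selected and none in ungated GFP-high cells. Xist ranged from 10.89 to 11.20 in Prominin-selected and from 8.97 to 9.19 in ungated GFP-high cells. The part of these, and of the Gapdh and 18S controls, in the Sox differences, X-linked Sox3 included, was not tested.

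Among GFP-low cells, 5 members were higher and 2 lower in Prominin-selected cells, against 10.8% of all genes higher and 8.46% lower. Sox6 was 3.91-fold higher (1.97 ± 0.21, adjusted p = 2.79e-05) and Sox21 2.51-fold higher (1.33 ± 0.22, adjusted p = 6.49e-04). Sox1 was 2.02-fold, Sox11 1.80-fold and Sox9 1.59-fold higher (adjusted p = 0.00856, 7.48e-04 and 0.0484). The call of Sox9 was lost in 13 of 18 alternative settings, and none of its 3 probe sets was called in the fit over probe sets. Sox5 was 2.61-fold lower (−1.38 ± 0.31, adjusted p = 0.00518) and Sox4 1.74-fold lower (−0.80 ± 0.17, adjusted p = 0.00435). Of the 7 Sox5 probe sets 1 was called higher and 4 lower, and of the 8 Sox4 probe sets 1 higher and 2 lower. Sox2, Sox3 and Sox8 were not called, at 0.54 ± 0.25, 0.77 ± 0.27 and 0.44 ± 0.36. Prom1 itself was higher in this contrast (1.56 ± 0.16, adjusted p = 2.37e-05) and differed by 0.14 among GFP-high cells (adjusted p = 0.585). Gate and labelling kit coincide except on 1 array, so in these contrasts they can hardly be told apart. With the kit as a term, the differences among GFP-high cells were −1.62 for Sox2, 1.87 for Sox11 and −1.21 for Sox3. Among GFP-low cells that of Sox6 was 2.19. The term rests on ungated GFP-high replicate 1 alone. Among GFP-high cells it therefore sets this array against the Prominin-selected arrays, and among GFP-low cells its estimate comes from the GFP-high cells. It cannot show how far the kit accounts for these differences. In Prominin-selected against ungated GFP-low cells, 6 of 7 Cajal-Retzius genes (median 1.87) and 6 of 9 interneuron genes (median 1.01) were also higher. The summed Cajal-Retzius intensity was 3568 to 5075 against 424 to 627, and Xist ranged from 9.81 to 11.19 against 8.17 to 8.96. Their part was not tested.

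E18 GFP-positive cells were then set against E14 GFP-high cells, both selected for Prominin, which sets late against mid corticogenesis in reporter-positive cells. The labels name the E18 cells GFP-positive and not GFP-high or GFP-low. Age and GFP gate therefore cannot be told apart, here or against E14 GFP-low cells. Both SoxD genes, Sox21, Sox3 and Sox9 were lower at E18. In all 5 of the 10 members fell and none rose, against 16.5% of all genes lower and 10.2% higher. The median difference was −0.92 over the members and −0.07 over all genes. Sox5 was 4.81-fold lower (−2.27 ± 0.30, adjusted p = 1.48e-04), and −1.93 without E18 replicate 5. Sox6 was 3.78-fold lower (−1.92 ± 0.15, adjusted p = 2.63e-06). Sox9 was 2.88-fold lower (−1.52 ± 0.16, adjusted p = 3.33e-05) and Sox21 2.81-fold lower (−1.49 ± 0.21, adjusted p = 2.01e-04). Sox3 showed the largest difference of the 10 (−2.88 ± 0.16, adjusted p = 4.90e-07), with its E18 mean of 6.06 below the mark. Sox1 (−0.22 ± 0.17), Sox2 (−0.34 ± 0.17), Sox11 (−0.21 ± 0.13) and Sox8 (0.49 ± 0.24) overlapped between the groups and were not called. Sox4 differed by 0.45 ± 0.16 without overlap and was not called (adjusted p = 0.0631).

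The 5 calls held under each of the 22 alternative settings, although that of Sox9 rested on 1 of its 3 probe sets. Under median centring, which put the median of all genes at −0.24, Sox2 (−0.74, adjusted p = 0.0166) and Sox11 (−0.54, adjusted p = 0.0473) were also called lower. On the values as deposited, Sox8 was called higher (0.72, adjusted p = 0.0415). E18 and E14 cells differed in other respects. The 3′ to 5′ Gapdh difference and the 18S signal were lower at E18 (−0.21 to 1.00 and 302 to 583) than in Prominin-selected E14 GFP-high cells (0.54 to 1.71 and 2446 to 5192), with some overlap in Gapdh, and their part was not tested. The summed intensity of 9 interneuron genes was 3448 to 3759 at E18 and 356 to 748 in E14 GFP-high cells. That of 7 oligodendrocyte-lineage genes was 1566 to 2719 at E18, against 117 to 160 in E14 GFP-high cells. Of these 7 genes Olig1, Olig2 and Pdgfra lay above the mark at E18 and none in E14 GFP-high cells, and Cspg4, Sox10, Nkx2-2 and Gpr17 were at or below it in both. Pdgfra, the receptor of oligodendrocyte precursors, stood at 7.59 at E18 against 4.23 in E14 GFP-high cells (adjusted p = 1.60e-05). The part of these cells in the Sox differences was not tested. Xist, expressed from the inactive X chromosome of females, ranged from 12.54 to 12.94 at E18 and from 9.81 to 11.20 on the Prominin-selected E14 arrays, while Y-linked Eif2s3y was above the mark on all 17 arrays. Its part in the difference of X-linked Sox3 was not tested.

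Against Prominin-selected E14 GFP-low cells, 1 member was higher and 6 lower at E18, against 6.02% of all genes higher and 11.4% lower. This comparison shares the E18 arrays with the one before. Sox5 was 6.82-fold lower (−2.77 ± 0.32, adjusted p = 1.68e-04), Sox6 2.39-fold lower (−1.26 ± 0.16, adjusted p = 2.59e-04) and Sox3 lower (−1.66 ± 0.18, adjusted p = 9.07e-05). Sox8 was higher (1.52 ± 0.26, adjusted p = 0.00203), with a mean of 6.72 at E18 against 5.20, below the mark, in E14 GFP-low cells. Sox9 (1.54-fold lower, adjusted p = 0.0293), Sox11 (1.36-fold lower, adjusted p = 0.0449) and Sox21 (1.62-fold lower, adjusted p = 0.04997) passed narrowly. Sox1 (0.52 ± 0.19), Sox2 (0.36 ± 0.19) and Sox4 (0.43 ± 0.18) were not called. The median difference was −0.54 over the members and −0.10 over all genes. The summed intensity of 7 Cajal-Retzius genes was 888 to 1611 at E18 and 3568 to 5075 in E14 GFP-low cells, and its part was not tested. The Gapdh and 18S controls also differed here, as given with the samples.

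**Figure D3:**
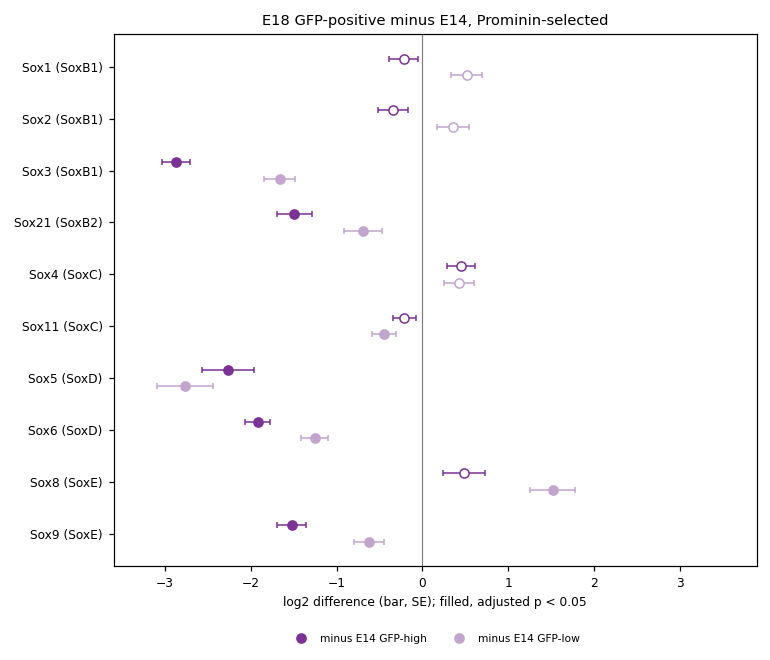
Differences between E18 GFP-positive and E14 cells (log2, E18 minus E14, all Prominin-selected) for the 10 Sox genes, against E14 GFP-high cells in purple and E14 GFP-low cells in the lighter colour. Points are differences, bars standard errors, and filled points passed an adjusted p below 0.05. Sox3, Sox21, Sox5, Sox6 and Sox9 lie below 0 with filled points in both comparisons, and Sox8 lies above 0, filled against GFP-low cells only.

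By subgroup, SoxB and SoxE members ran alike in sign in both GFP comparisons at E14. Sox11 was called lower only in the ungated one. Sox4 was called in neither on the probe set that represents it. In the ungated comparison 2 of its 8 probe sets were called lower. The SoxD pair had opposite signs in both and was called only in the ungated one. At E18 against E14 GFP-high cells the SoxD pair moved together, all SoxB differences were below 0 with Sox3 and Sox21 called, and Sox9 was called lower with Sox8 above 0 and not called. Neither members nor subgroups were tested against each other.

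Most members were covered by several probe sets, which bind different stretches of the transcripts, and 31 of the 36 had a group mean above the mark. Among ungated cells 14 probe sets were higher and 10 lower in GFP-high cells, against 11.7% of all single-symbol probe sets called in either direction. Under the Prominin gate 1 was higher and none lower, against 0.592%. At E18 2 were higher and 16 lower than in E14 GFP-high cells (background 23.3%), and 1 higher and 11 lower than in E14 GFP-low cells (16.2%). In Prominin-selected against ungated cells, 9 were higher and 10 lower among GFP-high cells (21.7%) and 9 higher and 9 lower among GFP-low cells (19.6%). For the gated minus ungated GFP difference, 8 lay above and 12 below 0 (4.87%).

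Probe sets of one gene ran together for SoxD in the comparisons across GFP and age. All 4 Sox6 probe sets were higher in ungated GFP-high cells, by 1.33 to 3.10, and all 4 were lower at E18 than in E14 GFP-high cells, with differences of −0.82 to −1.95. For Sox5, 6 of 7 probe sets were called lower in ungated GFP-high cells and 5 of 7 lower at E18 than in E14 GFP-high cells, where 2 of the 7 lay at or below the mark in every group. For SoxC they diverged. Between Prominin-selected and ungated GFP-high cells, the brightest Sox4 probe set 1433575_at was lower (−0.52), as was 1419157_at (−1.78), while 1455867_at (1.92, adjusted p = 8.54e-06), 1419156_at (1.19), 1419155_a_at (0.99) and 1449370_at (0.65) were higher. At E18 against E14 GFP-high cells, 1419155_a_at (−0.91), 1419156_at (−0.74) and 1455867_at (−0.75) were lower, against 0.45 for 1433575_at. The direction of Sox4 in these comparisons therefore depends on the probe set.

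Sox11 showed the same kind of divergence. Between Prominin-selected and ungated GFP-high cells the brightest probe set (1.79) and 1429372_at (1.26) were higher, while 1436790_a_at (−0.30), 1453125_at (−0.13), 1453002_at (0.06) and 1431225_at (0.60) were not called. Its brightest probe set differed by −0.21 between E18 and E14 GFP-high cells, whereas 1453002_at (0.81, adjusted p = 0.00602) and 1453125_at (0.61, adjusted p = 0.00967) were higher at E18. Among ungated cells all 6 Sox11 probe sets had differences below 0 and 2 were called lower in GFP-high cells. In Prominin-selected against ungated GFP-low cells the brightest (0.84) and 1429372_at (0.58) were higher, and 1436790_a_at (−0.88) and 1453125_at (−0.53) lower. A second Sox9 probe set, 1424950_at, averaged 6.62 ± 0.23 at E18, 6.71 ± 0.40 in Prominin-selected GFP-high cells and 9.04 ± 0.13 in ungated GFP-high cells. It gave a difference of −0.09 ± 0.21 for E18 against E14 GFP-high cells (adjusted p = 0.82), against −1.52 for the brightest. The mean over the Sox9 probe sets gave −0.54 (adjusted p = 0.0375). The second probe sets of Sox1 and Sox3 were above the mark only in ungated GFP-high cells, at 6.92 ± 0.21 and 7.27 ± 0.23 (SD, n = 3 each). In Sox5, 1452511_at was lower in Prominin-selected than in ungated GFP-high cells (−0.81), and 1440827_x_at (1.41) and 1455535_at (1.01) higher. The 3′ to 5′ Gapdh signal and the kit also differed between these arrays, and their part in the divergence was not tested.

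**Figure D4:**
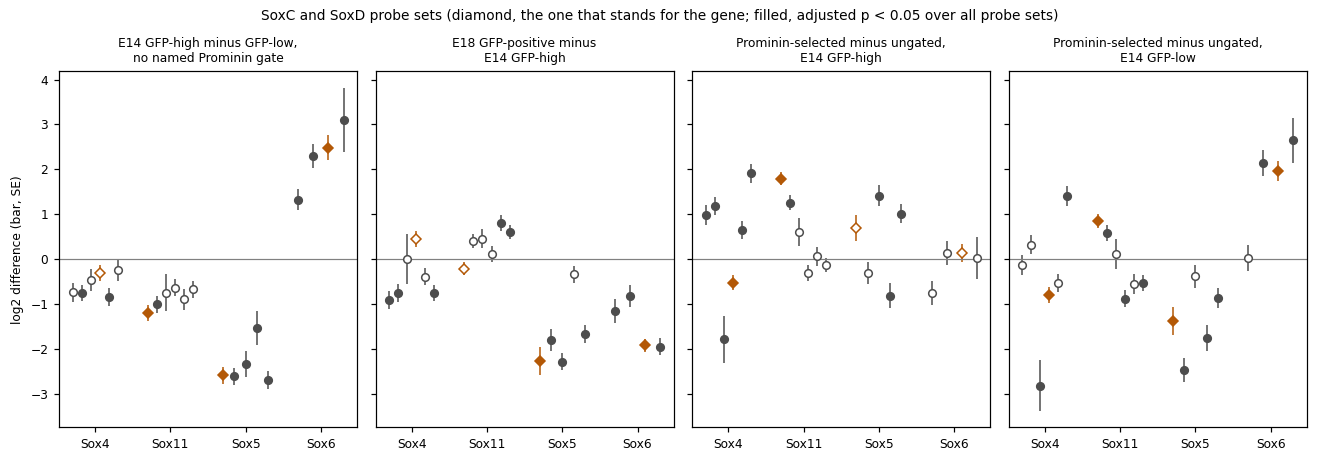
Differences (log2) of the single probe sets of the SoxC genes Sox4 and Sox11 and the SoxD genes Sox5 and Sox6 that had a group mean above the mark, in 4 comparisons. Each point is a probe set, and the diamond is the one that represents its gene. The Sox6 points share their sign in the GFP and E18 comparisons, while the Sox4 points in Prominin-selected against ungated GFP-high cells run from −1.78 to 1.92.

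Of 9 further Sox genes measured, Sox7, Sox10, Sox14, Sox15, Sox17, Sox18 and Sox30 were at or below the mark in every group. Sox12, the other SoxC gene, was lower in ungated GFP-high than GFP-low cells (9.11 against 9.92, −0.81 ± 0.20, adjusted p = 0.0346). Sox13, the other SoxD gene, was higher in GFP-high cells with the Prominin gate (6.76 against 5.88, adjusted p = 0.0398) and without it (7.16 against 5.27, adjusted p = 0.00868). It was lower at E18 than in E14 GFP-high cells (5.71 against 6.76, −1.05 ± 0.17, adjusted p = 7.30e-04).

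Genes known to act with each subgroup were counted beside it. Of 15 progenitor genes linked to SoxB1, 12 rose and none fell in ungated GFP-high cells (median 2.29), 3 rose and none fell under the gate (median 0.49), and 2 rose and 11 fell at E18 against E14 GFP-high cells (median −1.07). They include Nr2e1, an orphan receptor of neural stem cells, which was 8.52-fold higher in ungated GFP-high cells, and Notch1, the Notch receptor, which was 2.00-fold higher under the gate (adjusted p = 0.0108). Gli2, a Hedgehog effector, was 5.02-fold lower at E18. Of 9 proneural and basal progenitor genes, 7 rose in ungated GFP-high cells, 1 under the gate, and 6 fell at E18, with no call the other way. The gated call was Neurog1, a proneural factor (2.79-fold, adjusted p = 0.00793), and Eomes, which marks intermediate progenitors, was higher by 2.32 on the log2 scale in ungated GFP-high cells and 4.79-fold lower at E18.

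Of 13 postmitotic neuron genes linked to SoxC, 1 rose and 10 fell in ungated GFP-high cells (median −2.47), 1 rose and 6 fell under the gate (median −0.74), and 10 rose and 1 fell at E18 (median 1.34). The single gene against the others was Tead2 each time, a transcription factor of the Hippo pathway that progenitors also express, with differences of 2.37, 0.98 and −2.10 in these 3 comparisons. It is named after its values were seen. Stmn2, a microtubule regulator of growing axons, was 28.4-fold lower in ungated GFP-high cells and 3.32-fold lower under the gate. Mapt, which encodes tau, was 5.57-fold higher at E18. These differences are set beside those of Sox11, 2.28-fold lower in ungated GFP-high cells and not called at E18 against E14 GFP-high cells. Of 9 layer and projection neuron genes linked to SoxD, 1 rose and 6 fell in ungated GFP-high cells (median −1.34), and 1 rose and 4 fell at E18 (median −0.37), with 1 lower under the gate. Bcl11b, a factor of subcerebral projection neurons, was 6.01-fold lower in ungated GFP-high cells. Fezf2, which specifies deep-layer neurons, was 3.44-fold lower there and lower at E18 with a log2 difference of −3.59, whereas Cux2 of the upper layers was 3.99-fold higher at E18.

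Of 16 glial genes linked to SoxE, 4 rose and 3 fell in ungated GFP-high cells (median 0.47), none was called under the gate (median 0.11), and 5 rose and 3 fell at E18 (median 0.17). Aldoc, an astrocyte enzyme, was higher by 7.85-fold in the ungated GFP-high fraction (adjusted p = 6.72e-04). Tnc, an extracellular matrix protein of glia, was 8.03-fold higher at E18, and Fgfr3, a receptor of glial progenitors, 2.68-fold lower. Among markers of other cells, 6 of 7 Cajal-Retzius genes were lower in Prominin-selected GFP-high than GFP-low cells, led by Reln (6.94-fold), and their summed intensity was 650 to 820 against 3568 to 5075. The part of these cells in the gated Sox differences was not tested. At E18 8 of 9 interneuron genes and 3 of 7 oligodendrocyte-lineage genes were higher than in E14 GFP-high cells, Olig1 with a mean of 10.61 at E18 against 5.42.

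The genes most alike in pattern were found as those with the smallest root mean square difference over the 17 arrays, each gene centred on its own mean. They were Psat1 (0.261) and Cdkn2c (0.262) for Sox1, Myo10 (0.244) and Rcn1 (0.270) for Sox2, Mcm3 (0.373) and Celsr1 (0.377) for Sox3, and Pdpn (0.212) and Kif2c (0.216) for Sox21. For Sox11 they were Elavl3 (0.190) and Polb (0.216), for Sox5 Kcng1 (0.355) and Kif26a (0.537), and for Sox6 Kif26b (0.238) and Ccnb2 (0.258). For Sox8 they were Zfp36l2 (0.416) and Itgb8 (0.418), and for Sox9 Depdc1b (0.206) and Fbxo5 (0.216). The probe set that represents Sox4 varied too little between groups for such a match to be named. No member was the closest match of another.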

How the data were processed

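The deposited values are linear intensities, 1 per probe set and array, with the same trimmed mean on every array. The labels give column-purified RNA, amplification with the MessageAmp II or Affymetrix kit and biotin labelling. How probe sets were summarised and scaled, and the genome build, are not stated in the labels used here. Of 45037 probe sets without the 64 control probe sets, 34945 carry 1 symbol, 932 several and 9160 none. Only those with 1 symbol were used, and the symbols come from the platform annotation, which can be old.

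From the deposited intensity, log2(value + 16) was quantile normalised over the 17 arrays. Each gene took its probe set with the highest mean, which gave 18193 genes. limma 3.58.1 in R 4.3.3 (lmFit, eBayes, two-sided) was fitted over all genes, with Benjamini-Hochberg adjustment over all of them and calls at an adjusted p below 0.05. A second fit over the 34945 probe sets gave the calls of single probe sets. Comparisons within the Prominin selection used its 11 arrays, the ungated comparison its 6 arrays, and the others all 17. The steps were tested on simulated data.

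The background mark is the 90th percentile of the highest group mean over 26 genes of unrelated tissues. The 10 members were reported in every comparison. From each gene list up to 2 called genes with the lowest p could be named. The members and lists were chosen with earlier results of these data known, so counts over them are descriptions. Promoter windows come from RefSeq. Same-numbered arrays of different groups deviated from their group means with correlations of −0.144 to 0.040 over 27 pairs, so numbers were not treated as pairs. The number of arrays limits the precision. Alternatives covered pseudocount, normalisation, probe set choice, a filter on dim genes, the fit, a replicate block and leaving out arrays. The labelling kit as a term, and leaving out 4 arrays that stood apart, were added after seeing the data.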

Additional observations from a re-analysis of the deposited data

Results flagged for a closer look

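Among 20 sets of 4 arrays examined for an array far from the others, 2 were flagged, where chance flags about 1 in 20. In E18 cells replicate 5 of Sox5 (6.14) lay apart from the other 3 arrays (7.41 to 7.57), with a gap of 0.890 of the range. In E18 cells replicate 4 of Sox2 (10.03) lay apart from the other 3 (9.84 to 9.87), with a gap of 0.835 of the range. The Sox2 gap is small in absolute size, and Sox5 was called lower at E18 with and without its replicate.

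The difference between GFP-high and GFP-low cells itself differed between Prominin-selected and ungated cells for 8 members. The gated minus ungated difference on the log2 scale was −1.69 for Sox1, −2.04 for Sox2, −1.93 for Sox3, −1.52 for Sox21, −1.82 for Sox6 and −1.25 for Sox9. It was 0.95 for Sox11 and 2.08 for Sox5. The gate coincides with the labelling kit on 16 of the 17 arrays. With the kit as a term in the model 8 members were again called. That term rests on ungated GFP-high replicate 1 alone and equals leaving this array out, so the part of the kit was not tested.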

How the results depend on the processing

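Of the 10 members, 9 were called among ungated GFP-high against GFP-low cells and 5 between E18 and E14 GFP-high cells, and these counts stayed within 1.5 times under all alternatives tried. The ungated call of Sox8 was lost with a pseudocount of 1 and without the arrays that stood apart (adjusted p = 0.0622). For GFP-high against GFP-low cells under the Prominin gate the count was 2, with 305 of 18193 genes called. Brackets hold the calls over all genes. It became 1 with a pseudocount of 1 (74), 5 with a pseudocount of 64 (554) and 0 with the mean of a gene's probe sets (143). It was 1 with all probe sets (207 of 34945) and 6 without the dimmest 40% of genes (510 of 10916). It was 0 with the replicate block (8), 7 with a trend and robust fit (498) and 0 without the arrays that stood apart (6). It was 1 to 3 when each array was left out in turn (76 to 251). Sox9 lost its gated call in 10 of 22 settings, and Sox3 in 3: with the mean of probe sets, the replicate block (adjusted p = 0.0888) and without the arrays that stood apart (adjusted p = 0.0697). At E18 against E14 GFP-low cells the count was 7 (3166). It became 4 with the mean of probe sets (2638), with the replicate block (1128) and without the arrays that stood apart (2338). It was 4 to 7 when each array was left out (2286 to 3571). Sox3, Sox5, Sox6 and Sox8 kept that call in all 22 settings, while Sox9, Sox11 and Sox21 lost it in 12 or more. For Prominin-selected against ungated GFP-high cells the count was 6 (3774). It became 2 with the kit as a term (1688) and 3 without the arrays that stood apart (2487). It was 3 to 6 when each array was left out (2775 to 3519). For GFP-low cells the count was 7 (3496). It became 3 with the mean of probe sets (3015), 4 with only their own arrays (1518) and 1 with the kit as a term (373). It was 5 to 10 when each array was left out (2420 to 3817). In both of these contrasts the kit term rests on ungated GFP-high replicate 1 alone, so its counts do not show the part of the kit. For the gated minus ungated difference the count of 8 (1400) became 3 without the arrays that stood apart (597). It was 8 to 9 when each array was left out (1033 to 1729). With the mean of probe sets some values changed sign, among them those that follow. For E18 minus E14 GFP-high, Sox11 gave 0.36 (adjusted p = 0.0375) and Sox4 −0.35. For E18 minus E14 GFP-low, Sox11 gave 0.13 and Sox4 −0.11. For Prominin-selected minus ungated GFP-low cells, Sox11 gave −0.071 and Sox3 −0.09. Sox4 also gave 0.32 for Prominin-selected minus ungated GFP-high cells, and 0.23 for GFP-high minus GFP-low cells under the gate. The cause was not tested. The share of higher genes among all calls moved by over 10 percentage points under median centring: 21.3% against 38.1% for E18 against E14 GFP-high cells, 21.2% against 34.6% for E18 against E14 GFP-low cells, and 46.7% against 56.7% and 37.5% against 56.0% for Prominin-selected against ungated GFP-high and GFP-low cells.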

Other observations

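One Sox4 probe set, 1419157_at, split the E18 arrays into levels of 10.40 and 10.79 on replicates 2 and 4, and 7.76 and 8.24 on replicates 3 and 5. The probe set that represents Sox4 stayed between 13.20 and 13.53 on the same arrays. The 3′ to 5′ Gapdh difference on these arrays was −0.12 and −0.21 on replicates 2 and 4, and 1.00 and 0.48 on replicates 3 and 5, and its part was not tested.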
